A study of Mus musculus with 8 samples.

Results

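The livers described here are those of mice without Cre, compared 72 h after partial hepatectomy and after a sham operation. They were chosen by their titles, which gave 4 of the 8 libraries of the study: 2 sham and 2 hepatectomy. All 8 libraries came from whole liver of 129S4/SvJae/FVB mice, aged 3 months, that carried floxed alleles of b-PDGFR (gene Pdgfrb, which encodes a receptor of platelet-derived growth factor). The 4 libraries compared here were GFAP Cre -/-, so that no Cre was present to act on the floxed alleles. The other 4, from mice with Cre under the GFAP promoter, which the study used to delete Pdgfrb in hepatic stellate cells, entered only the shared estimate of the spread and the test of a difference between the responses of the genotypes. Whether replicate libraries came from separate animals is not stated in the labels, so p-values measure only the spread between these samples, which may be technical.

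Partial hepatectomy removes part of the organ, and the remaining lobes grow back without a stem cell layer: mature hepatocytes leave quiescence, copy their DNA and divide, and non-parenchymal cells follow. Entry into S phase is driven by cyclin-dependent kinases and E2F factors that act on the genes of origin licensing and the replication fork. Mitosis is driven by cyclin B with Cdk1 and by the kinases of the spindle checkpoint, while the liver goes on supplying plasma proteins, glucose, urea and bile acids from a smaller mass.

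After hepatectomy, genes of mitosis and DNA replication rose in Cre-negative livers, with log2 fold changes of up to 5.86, and a smaller group of genes of mature hepatocyte function fell. Of 16338 genes tested, 248 rose and 36 fell at an adjusted p under 0.05 (limma on log2(signal + 1), Benjamini-Hochberg), which is 1.52% and 0.220% of those tested. The genes that rose had a median log2 fold change of 3.16 (range 1.13 to 5.86) and those that fell a median of -1.80 (range -4.12 to -1.28). Both hepatectomy libraries lay above both sham libraries in all 248 and below them in all 36. Over all genes tested, 39.8% lay above and 23.3% below in this way, and the median log2 fold change was 0.21. At an unadjusted p under 0.05, 2513 of the 16338 were higher and 1014 lower, the background for such counts in the lists. Calls in either direction were 1.74% of the genes tested.

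These counts rest on few libraries. No gene passed in either direction when any 1 of the 4 sham libraries (Cre-negative or Cre-positive, replicate 1 or replicate 2) or Cre-negative hepatectomy replicate 1 was left out, although between 1603 and 2645 genes still had an unadjusted p under 0.05 in these fits (3527 with all libraries). Without Cre-negative hepatectomy replicate 2, 42 rose and 20 fell. Without both Cre-positive hepatectomy libraries, in which the 10 most abundant genes held 18.4% and 30.0% of the signal, 1240 rose (7.59%) and 554 fell (3.39%), with all 248 and all 36 among them. With a smooth trend of GC content removed from each library, 371 rose and 238 fell, so that 60.9% of the calls were rises in place of 87.3%. In each setting that tested all of them, all 248 kept a positive and all 36 a negative fold change.

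The rises lay mostly in genes with little signal in the sham livers. Of the 248, 57 had a mean sham signal under 1, 108 between 1 and 10, 64 between 10 and 100 and 19 of 100 or more. In all, 66.5% of the genes that rose were under 10 in sham, against 28.9% of all genes tested, and 30 were listed at 0 in both sham libraries. Such genes met the filter on low signal, a mean of 1 or more over the 8 libraries, only through other libraries. They could not fall, so their direction was fixed in advance, and the same holds in part for the 57 under 1. A set of 16 clone-named entries held identical values (0 and 0 in sham, 15.3 and 16.3 after hepatectomy), so the 248 genes stand for 233 distinct measurements. Signal is normalized and not a read count, and the log2(signal + 1) scale understates the change of such low genes.

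**Figure D1:**
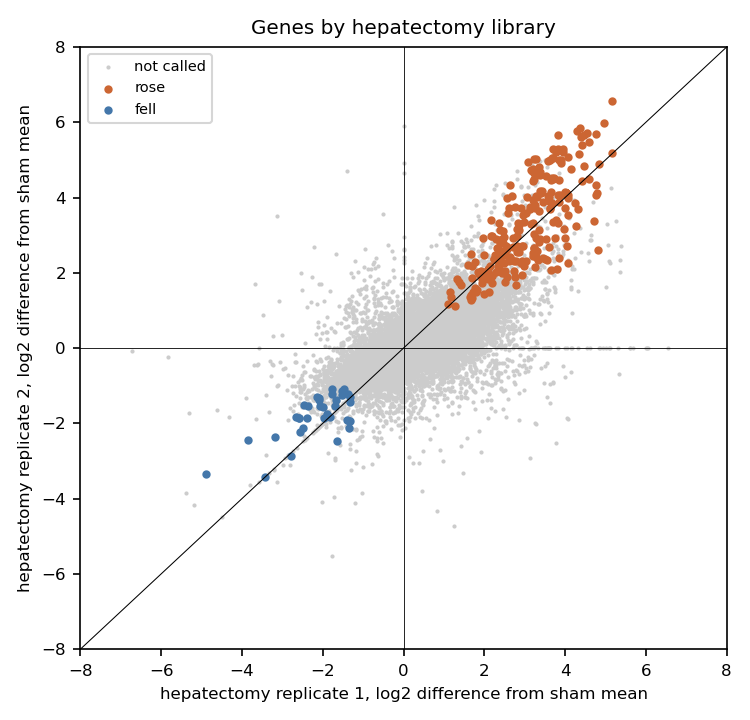
Each point is 1 gene, with its log2 difference from the mean of the 2 Cre-negative sham libraries in hepatectomy replicate 1 (x axis) and replicate 2 (y axis) and the line of equal values. The genes that rose (orange, 248) and fell (blue, 36) lie away from 0 in both libraries, whereas many grey genes differ from sham in 1 library alone. The axes end at 8 on either side, and 2 genes lie outside them.

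The 2 sham libraries resembled each other more than the 2 hepatectomy libraries did, with a median ratio between replicates of 1.159 and 1.379. On the first principal component of the 8 libraries (41.3% of the variance) the sham libraries stood at -49.1 and -45.5 and the hepatectomy libraries at 82.4 and 46.5. The Cre-positive hepatectomy libraries stood at -17 and 78.6, the first of them toward the sham libraries. On the second component (25.1%) the Cre-negative hepatectomy libraries lay apart, at 78.6 and 16.2, against 8.3 and 6.08 for the sham libraries. Genes at a signal of 1 or more numbered 15580 and 15614 in sham and 17398 and 16623 after hepatectomy. The difference from sham also moved with GC content: the 4023 genes at 55% GC or more had medians of 0.598 and 0.381 in the 2 hepatectomy libraries, against 0.069 and -0.079 for the 525 genes under 40%. The part of GC content in single calls was not tested beyond the fit with its trend removed. The median GC content was 49.7% for genes that rose, 50.1% for those that fell and 50.6% for all genes tested.

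Hepatocyte markers, which check the tissue label, were abundant in all 4 libraries. Apoa1, the main protein of HDL, had signals of 55246.1 and 54189.2 in sham and 38354.8 and 69427.1 after hepatectomy. Ttr, the thyroxine carrier transthyretin, had 35679.2 and 29340.6 in sham and 33955.9 and 47592.2 after it. Most of the markers chosen were lower in both hepatectomy libraries than in either sham library. Tat had 72107.5 and 61715.1 in sham and 23635.4 and 26929.6 after hepatectomy, and Apob had 26221.9 and 26329.4 against 8307.5 and 20333.8. Pck1, Cps1, Cyp2e1 and Serpina1c were lower in the same way, while Ahsg, like Apoa1 and Ttr, overlapped sham. Exact zeros of abundant genes were treated as failed estimates: Alb, albumin, was listed at 0 in 3 of the 4 libraries and at 227225.8 in hepatectomy replicate 1. In all, 105 genes that combined a 0 with a signal of 100 or more elsewhere among the 8 libraries were left out, 65 of them with a 0 in a Cre-negative library. Pdgfrb itself had 49.8 and 63.3 in sham and 122.6 and 70.5 after hepatectomy (log2 fold change 0.72, SE 0.39, adjusted p = 0.316). Its groups did not overlap, but the difference did not pass. Gfap, a stellate cell gene whose promoter drives Cre in the other mice, had 3.57 and 2.92 in sham and 7.35 and 4.66 after hepatectomy (0.70, SE 0.61, adjusted p = 0.53), and its fold change turned to -0.11 under quantile normalization.

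The 3 lists of mitosis had the highest medians of the 69 gene lists. Of 28 mitotic kinases and regulators tested, 16 rose and 0 fell, with a median log2 fold change of 3.96. Of 34 genes of the kinetochore and centromere, 20 rose and 0 fell, with a median of 3.04. Of 27 genes of spindle motors and cytokinesis, 14 rose and 0 fell, with a median of 3.94. These counts are 57.1%, 58.8% and 51.9% of the members tested, against 1.52% of all genes. The medians of all 3 lists were higher in hepatectomy replicate 2 (4.37, 3.67 and 4.47) than in replicate 1 (3.34, 2.56 and 3.26), and only 1 of the 27 genes of the last list was higher in replicate 1. Without both Cre-positive hepatectomy libraries, 24, 27 and 26 of these genes rose, in a fit where 7.59% of all genes did.

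Cdc20, the activator of the anaphase-promoting complex, had signals of 2.63 and 2.52 in sham and 126.0 and 338.2 after hepatectomy. Its log2 fold change of 5.86 was the largest of all calls, though with an SE of 1.09 (adjusted p = 0.0494). Ttk, the kinase Mps1 of the spindle checkpoint, had 1.67 and 2.60 in sham and 83.4 and 159.9 after hepatectomy (5.23, SE 0.49, adjusted p = 0.0165). Its partner Bub1, a checkpoint kinase at the kinetochore, had 4.15 and 3.88 against 63.1 and 114.8 (4.10, SE 0.46, adjusted p = 0.0165). For these 3 genes both sham libraries lay far below the lower hepatectomy library. Cdkn3, a phosphatase of cyclin-dependent kinases, had close hepatectomy replicates, with 5.86 and 5.05 in sham and 231.2 and 231.8 after hepatectomy (5.17, SE 0.41, adjusted p = 0.0129).

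Cdk1, the kinase that starts mitosis, had 17.3 and 17.6 in sham and 306.8 and 620.4 after hepatectomy (4.57, SE 0.63, adjusted p = 0.0272). Its cyclins rose with it. Ccnb1 had 2.12 and 5.80 in sham and 94.5 and 262.1 after hepatectomy (5.11, SE 0.89, adjusted p = 0.0442), and Ccnb2 had 9.28 and 9.40 against 132.9 and 402.4 (4.49, adjusted p = 0.0345). Ccna2, the cyclin of S phase and early mitosis, had 5.55 and 7.03 in sham and 73.7 and 203.1 after hepatectomy, a log2 fold change of 4.09. Cdc25c, the phosphatase that activates Cdk1, was listed at 0 and 0.623 in sham and at 29.4 and 55.3 after hepatectomy (5.02, SE 0.91, adjusted p = 0.0464). Hepatectomy replicate 2 was the higher of the 2 for each of these genes of the Cdk1 switch.

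Some well-known members of the same list did not pass. Aurka, the centrosomal Aurora kinase, had 10.7 and 10.8 in sham and 56.1 and 233.5 after hepatectomy (log2 fold change 3.30, SE 1.00, adjusted p = 0.137). Plk1, Polo-like kinase, had 4.49 and 5.26 against 57.1 and 123.9 (3.86, adjusted p = 0.104). Both were above sham in either hepatectomy library, with a wide gap between the replicates. Bub3 had 153.6 and 154.6 in sham and 163.8 and 238.8 after hepatectomy (0.36, adjusted p = 0.612). Wee1, the kinase that restrains Cdk1, was the only tested member with a negative fold change: 117.5 and 87.6 in sham and 27.6 and 74.3 after hepatectomy (-1.14, adjusted p = 0.207).

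Among kinetochore genes, Birc5 (survivin, of the chromosomal passenger complex) had 6.37 and 10.9 in sham and 197.6 and 453.2 after hepatectomy (5.00, SE 0.70, adjusted p = 0.0272). Kntc1, of the complex that recruits dynein to kinetochores, had 3.84 and 5.45 in sham and 160.4 and 166.0 after hepatectomy (4.88, SE 0.38, adjusted p = 0.0129). Cenpi, of the inner kinetochore, had 1.65 and 2.18 against 50.3 and 77.1 (4.45, SE 0.37, adjusted p = 0.0141). Inner and outer kinetochore genes were both among those called. Ndc80, the outer component that binds microtubules, had 1.15 and 2.11 in sham and 37.2 and 77.2 after hepatectomy (4.40, SE 0.49, adjusted p = 0.0165). All 34 tested members had positive fold changes, down to 0.02.

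Of the spindle and cytokinesis genes, Stmn1, the microtubule-destabilizing stathmin, had 14 and 19.7 in sham and 391.2 and 880.7 after hepatectomy (5.06, SE 0.58, adjusted p = 0.0174). Kif4, the chromokinesin of the central spindle, had 4.59 and 8.79 against 104.8 and 163.1 (4.15, SE 0.44, adjusted p = 0.0165). Anln, anillin of the cleavage furrow, had 4.97 and 7.57 against 75.9 and 126.8 (3.79, SE 0.41, adjusted p = 0.0165). Genes of the spindle and of the cleavage furrow were both among those called. The motor Kif11 had 12.5 and 15.9 in sham and 46.9 and 140.1 after hepatectomy (2.45, adjusted p = 0.0805), and Kif23 had 9.93 and 18 against 52.5 and 56.7 (1.95, adjusted p = 0.0517). None of 13 tubulins passed, with 8 higher at an unadjusted p under 0.05 and a list median of 1.47. At that threshold 2513 of all 16338 genes tested were higher. Tubb2a had 64.6 and 38.8 in sham and 421.8 and 205.1 after hepatectomy (2.53, adjusted p = 0.115). In the list of condensin and cohesin, 4 of 20 rose: the condensin subunits Ncapg and Ncaph, Cdca5 (sororin, which protects cohesion) and Top2a, topoisomerase II. Top2a had 23.2 and 36.4 in sham and 185.3 and 605.0 after hepatectomy (3.48, SE 0.54, adjusted p = 0.0345). The cohesin ring subunit Smc3 had 245.2 and 270.6 against 207.2 and 217.7 (-0.28, adjusted p = 0.866).

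**Figure D2:**
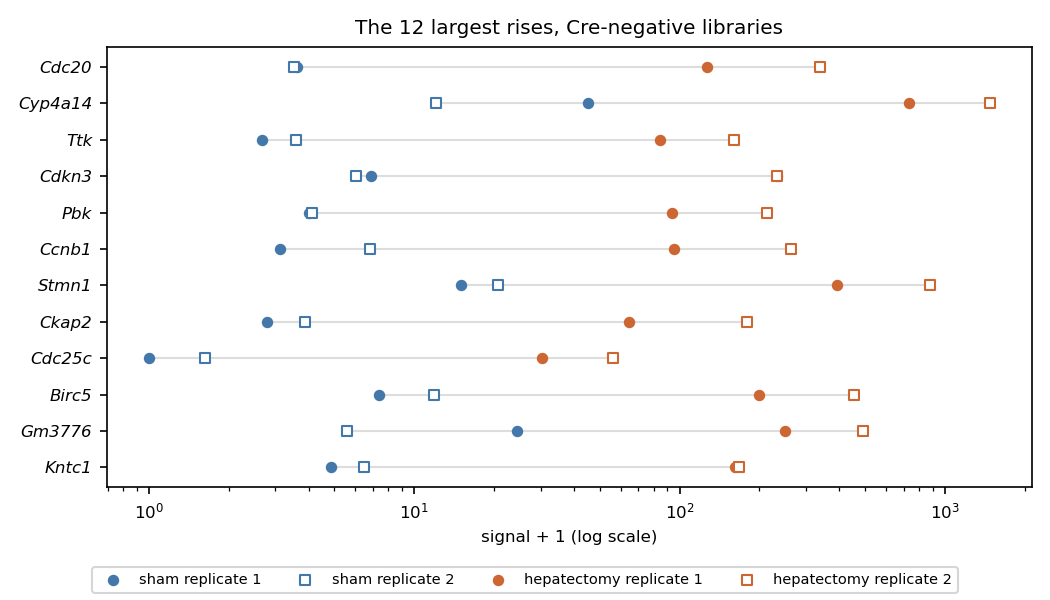
Signal + 1 on a log axis for the 12 genes with the largest rise in Cre-negative livers, in the 2 sham (blue) and 2 hepatectomy (orange) libraries, circles for replicate 1 and squares for replicate 2. The 2 groups are separate for each gene, and Cdkn3 and Kntc1 show the closest hepatectomy replicates.

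Genes of DNA replication and repair rose as well. Of 21 genes of origin licensing and helicase, 6 rose and 0 fell (median log2 fold change 1.30). Of 28 genes of the replication fork and polymerases, 6 rose and 0 fell (median 1.26), and all 28 had positive fold changes. Of 29 genes of DNA repair and damage checkpoint, 12 rose and 0 fell (median 1.97). These rises were 28.6%, 21.4% and 41.4% of the members tested, against 1.52% of all genes. The counts were 11, 14 and 18 without both Cre-positive hepatectomy libraries, in a fit where 7.59% of all genes rose.

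Mcm5 and Mcm6 are subunits of the ring-shaped helicase loaded at origins. Mcm5 had 27.2 and 31.2 in sham and 220.0 and 288.3 after hepatectomy (3.07, SE 0.29, adjusted p = 0.0165), and Mcm6 had 11.4 and 14.2 against 128.5 and 305.0 (3.86, SE 0.49, adjusted p = 0.0221). Mcm2 of the same ring had 19.3 and 20.4 in sham and 106.1 and 89.9 after hepatectomy (2.24, SE 0.30, adjusted p = 0.0257). Other subunits did not pass: Mcm3 had 43.5 and 40.9 against 127.4 and 126.3 (1.56, adjusted p = 0.0563), and Mcm4 had 42.1 and 40.2 against 96.0 and 77.0 (1.04, adjusted p = 0.285). Dbf4, the activator of the origin-firing kinase Cdc7, had 10.6 and 16.2 in sham and 73.8 and 124.5 after hepatectomy (2.78, SE 0.39, adjusted p = 0.0279). Cdc6, the licensing factor, had 3.63 and 2.95 against 35.9 and 12.9 (2.40, adjusted p = 0.0626) and was, unlike Mcm6 and Dbf4, higher in hepatectomy replicate 1.

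At the fork, Pole, the leading-strand polymerase, had 24.3 and 32.7 in sham and 145.3 and 155.2 after hepatectomy (2.37, SE 0.30, adjusted p = 0.0198). Lig1, which joins Okazaki fragments, had 41.0 and 40.6 against 203.7 and 311.1 (2.60, SE 0.34, adjusted p = 0.0238). Clspn, claspin of the replication checkpoint, had 1.87 and 4.8 against 40.7 and 34.7 (3.24, SE 0.46, adjusted p = 0.0279). The sliding clamp Pcna did not pass, with 272.0 and 276.9 in sham and 340.6 and 452.6 after hepatectomy (0.52, adjusted p = 0.465). Of 29 genes of nucleotide and one-carbon synthesis 1 rose, Tyms, thymidylate synthase, with 38.4 and 45.4 in sham and 137.8 and 191.2 after hepatectomy (1.93, SE 0.33, adjusted p = 0.0442). The list's median was 0.10, below that of all genes, and its sign turned under median-of-ratios scaling (-0.09).

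The repair genes that rose act in several pathways. Rad54l, a DNA translocase of homologous recombination, had 1.49 and 2.67 in sham and 47.0 and 52.4 after hepatectomy (4.06, SE 0.41, adjusted p = 0.0165). Fancd2, of the interstrand crosslink pathway, had 7.23 and 5.36 against 65.7 and 71.3 (3.26, SE 0.51, adjusted p = 0.0345). For Rad54l and Fancd2 the 2 hepatectomy libraries lay close together. Among 24 histone chaperones and DNA methylation genes 5 rose, or 20.8%, against 1.52% of all genes tested. They were led by Uhrf1, which keeps DNA methylation through replication. Uhrf1 had 4.46 and 9.24 in sham and 118.7 and 97.7 after hepatectomy (3.86, SE 0.43, adjusted p = 0.0165). Of 22 histones 1 rose, the replication-independent H2A.Z gene H2afz, with 609.6 and 519.8 in sham and 1414.2 and 2006.4 after hepatectomy (1.58, SE 0.26, adjusted p = 0.0383).

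Few regulators upstream of these genes passed. Of 20 E2F, RB and MYB regulators 1 rose, E2f1, with 12.5 and 10.9 in sham and 59.3 and 64.4 after hepatectomy (2.31, SE 0.33, adjusted p = 0.0279). Foxm1, the factor of G2 and mitosis genes, had 2.32 and 4.52 against 46.3 and 77.3 (3.83, SE 0.79, adjusted p = 0.062) and did not pass. Of 25 genes of G1 cyclins and growth arrest 1 rose, Cks1b, a cofactor of the ligase that degrades p27, with 28.3 and 22.1 in sham and 106.9 and 98.5 after hepatectomy (1.99, SE 0.34, adjusted p = 0.0433). Ccnd1, cyclin D1 of the exit from quiescence, had 54.9 and 50.2 in sham and 158.9 and 77.3 after hepatectomy (1.06, adjusted p = 0.282). Cdkn1a, the inhibitor p21, had 105.5 and 64.0 against 224.5 and 492.6 (2.00, adjusted p = 0.104). The proliferation marker Mki67, named after its values were seen, had 11 and 12.2 in sham and 157.1 and 221.1 after hepatectomy (3.90, SE 0.63, adjusted p = 0.0382).

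**Figure D3:**
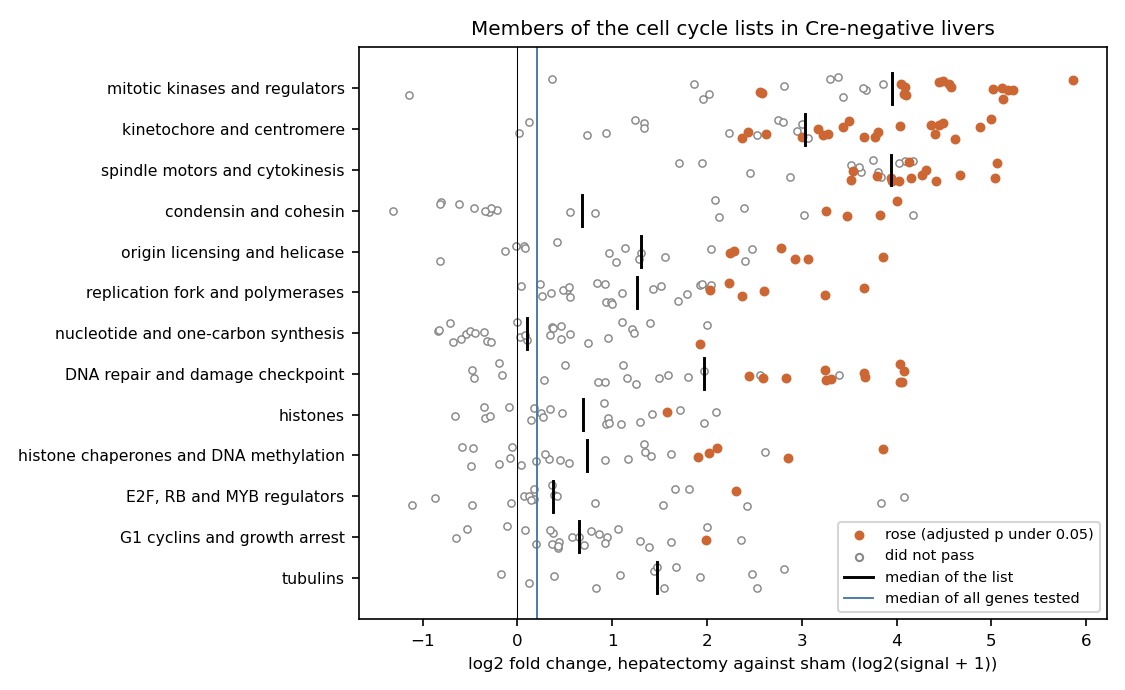
Each point is the log2 fold change (hepatectomy against sham, log2(signal + 1)) of 1 tested member of 13 cell cycle lists, filled where it rose at an adjusted p under 0.05. Black ticks are list medians and the blue line the median of all genes tested (0.21); the 3 mitosis lists at the top sit furthest to the right, with medians of 3.96, 3.04 and 3.94.

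The promoters of members that moved together are shown for the letters that known cell cycle factors bind. RefSeq promoters of the build GRCm38.p6, from 250 bases before to 50 after the start of a gene, were searched on both strands for CCAAT (the NF-Y box), TTTGAA (the core of the CHR element of late cell cycle genes) and TTGGCGC or TTCCCGC (letters of E2F sites). Where ATTGG is followed by CGC, the same letters hold both CCAAT and TTGGCGC. The NF-Y box was present in 37.4% of all 32851 promoters, in 69.0% of the 29 matched of 34 kinetochore and centromere genes, in 64.0% of the 25 matched of 27 genes of spindle motors and cytokinesis and in 64.7% of the 17 matched of 21 genes of origin licensing and helicase. TTTGAA was in 17.9% of all promoters and in 44.8%, 80% and 29.4% of these lists. The E2F letters were in 6.8% of all promoters and in 27.6%, 12% and 47.1%. The NF-Y box was as frequent in lists with few or no rises: in 84.2% of the 19 matched histones (1 of 22 rose), in 80% of the 30 matched genes of ER chaperones and unfolded protein response (0 of 34 rose, median -0.36) and in 75.0% of the 16 matched core clock genes (0 of 19 rose). The E2F letters were in 35.3% of the 17 matched immediate early genes, of which 0 rose. TTTGAA was in 37.8% of the 37 matched cytochromes P450 of families 1 to 3 (0 of 42 rose). It was in 33.3% of the 36 matched genes of phase II conjugation (2 of 44 rose). A match is only the presence of the letters in this window. Shares are given only for some of the lists with at least 80% of members matched, which leaves out the mitotic kinases and regulators (78.6%).

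The 150 bases that end at the start of the gene are given for Cdc20 and Cdk1, of the mitotic list, and for Mcm5 and Mcm6, of the licensing list. They were chosen after the values and the letters had been seen, to show both arrangements, with the searched letters in capitals (ATTGG is CCAAT and GCGCCAA is TTGGCGC read on the other strand). They lie at chr4:118437344-118437493, chr10:69352913-69353062 and chr1:128359706-128359855 on the minus strand and chr8:75109359-75109508 on the plus strand.
Cdc20: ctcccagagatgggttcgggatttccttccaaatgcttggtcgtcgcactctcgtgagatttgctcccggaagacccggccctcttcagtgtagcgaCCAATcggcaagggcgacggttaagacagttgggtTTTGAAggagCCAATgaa
Cdk1: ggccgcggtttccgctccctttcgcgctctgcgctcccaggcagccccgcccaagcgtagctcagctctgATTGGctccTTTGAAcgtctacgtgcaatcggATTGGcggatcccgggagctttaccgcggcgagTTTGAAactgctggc
Mcm5: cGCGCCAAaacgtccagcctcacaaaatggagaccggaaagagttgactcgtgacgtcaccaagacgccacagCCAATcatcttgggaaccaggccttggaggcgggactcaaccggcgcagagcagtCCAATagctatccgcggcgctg
Mcm6: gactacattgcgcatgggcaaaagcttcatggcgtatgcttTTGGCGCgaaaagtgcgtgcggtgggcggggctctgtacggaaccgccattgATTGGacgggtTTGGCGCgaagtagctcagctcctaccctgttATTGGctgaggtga
In Cdc20 the TTTGAA starts 18 bases before the gene's start, between CCAAT boxes that start 53 and 8 bases before it. Cdk1 holds 2 TTTGAA, 71 and 15 bases before the start, and boxes at 80 and 48. Mcm6 holds 2 TTGGCGC, 109 and 46 bases before the start, and boxes at 57 and 14. Mcm5 holds the E2F letters at 149 and boxes at 77 and 22. Neither Mcm5 nor Mcm6 holds TTTGAA in the bases shown.

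Receptors and ligands known to drive or restrain regeneration mostly did not pass at 72 h. None of 21 genes of HGF and EGF receptor signalling passed in limma, with 1 higher and 4 lower at an unadjusted p under 0.05. By this measure 2513 of all 16338 genes tested were higher and 1014 lower. Hgf, the stellate-derived hepatocyte growth factor, had 263.1 and 224.1 in sham and 63.1 and 55.3 after hepatectomy (log2 fold change -2.02, SE 0.95, adjusted p = 0.265), and Egfr had 7524.5 and 8344.7 against 3438.4 and 4212.0 (-1.06, SE 0.27, adjusted p = 0.105). Both were lower in either hepatectomy library than in either sham library. None of the 6 PDGF ligands and receptors passed either (1 higher at an unadjusted p under 0.05): the ligand Pdgfa had 37.1 and 34.1 in sham and 116.2 and 67.8 after hepatectomy (1.30, adjusted p = 0.124). In the list of IL-6 family signalling 1 of 16 fell, Lifr, the receptor of leukaemia inhibitory factor, with 5164.9 and 7861.5 in sham and 1821.8 and 1804.1 after hepatectomy (-1.81, SE 0.29, adjusted p = 0.0383). The receptor subunit Il6ra had 631.0 and 559.0 against 147.3 and 277.1 (-1.55, adjusted p = 0.0707). Of 28 genes of the TGF-beta and activin pathway, 18 YAP targets and 21 immediate early genes, 0 passed. At an unadjusted p under 0.05, 1 gene was higher and 3 were lower in the TGF-beta list, 1 was higher among YAP targets and 1 was lower among immediate early genes. The immediate early list had medians of 1.19 in hepatectomy replicate 1 and -0.40 in replicate 2. Bax, the pro-apoptotic pore protein, was the 1 of 15 BCL2 family genes that rose: 175.5 and 199.9 in sham and 610.8 and 469.6 after hepatectomy (1.51, SE 0.24, adjusted p = 0.0377).

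The genes that fell were led by products of mature hepatocytes. Serpina1e, an alpha-1-antitrypsin paralog, had 64447.1 and 67295.0 in sham and 2211.6 and 6451.7 after hepatectomy (-4.12, SE 0.48, adjusted p = 0.0188). Its sister genes share sequence, so its value is uncertain: Serpina1c had 86839.7 and 62814.2 in sham and 21982.9 and 39247.2 after hepatectomy. In Cre-positive livers Serpina1e had 9343.4 and 10866.8 in sham, far below Cre-negative sham, and 19359.5 and 13241.6 after hepatectomy. Its log2 fold change there was 0.67, and its difference of responses of -4.79 did not pass (adjusted p = 0.196). The cause of the gap between the sham groups was not tested. Serpina3k, a plasma serine protease inhibitor, had 65011.1 and 88776.7 in sham and 5312.7 and 13968.9 after hepatectomy (-3.14, SE 0.45, adjusted p = 0.0279). For both inhibitors hepatectomy replicate 1 was the lower. Kcnk10, a potassium channel gene, had 6.69 and 14 in sham and was listed at 0 in both hepatectomy libraries (adjusted p = 0.0262). It was at 0 in all Cre-positive libraries too, so it met the filter through sham alone and could not rise. Rgs16, a regulator of G protein signalling in liver, had 571.2 and 985.1 in sham and 108.1 and 101.8 after hepatectomy (-2.83, SE 0.39, adjusted p = 0.0262).

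**Figure D4:**
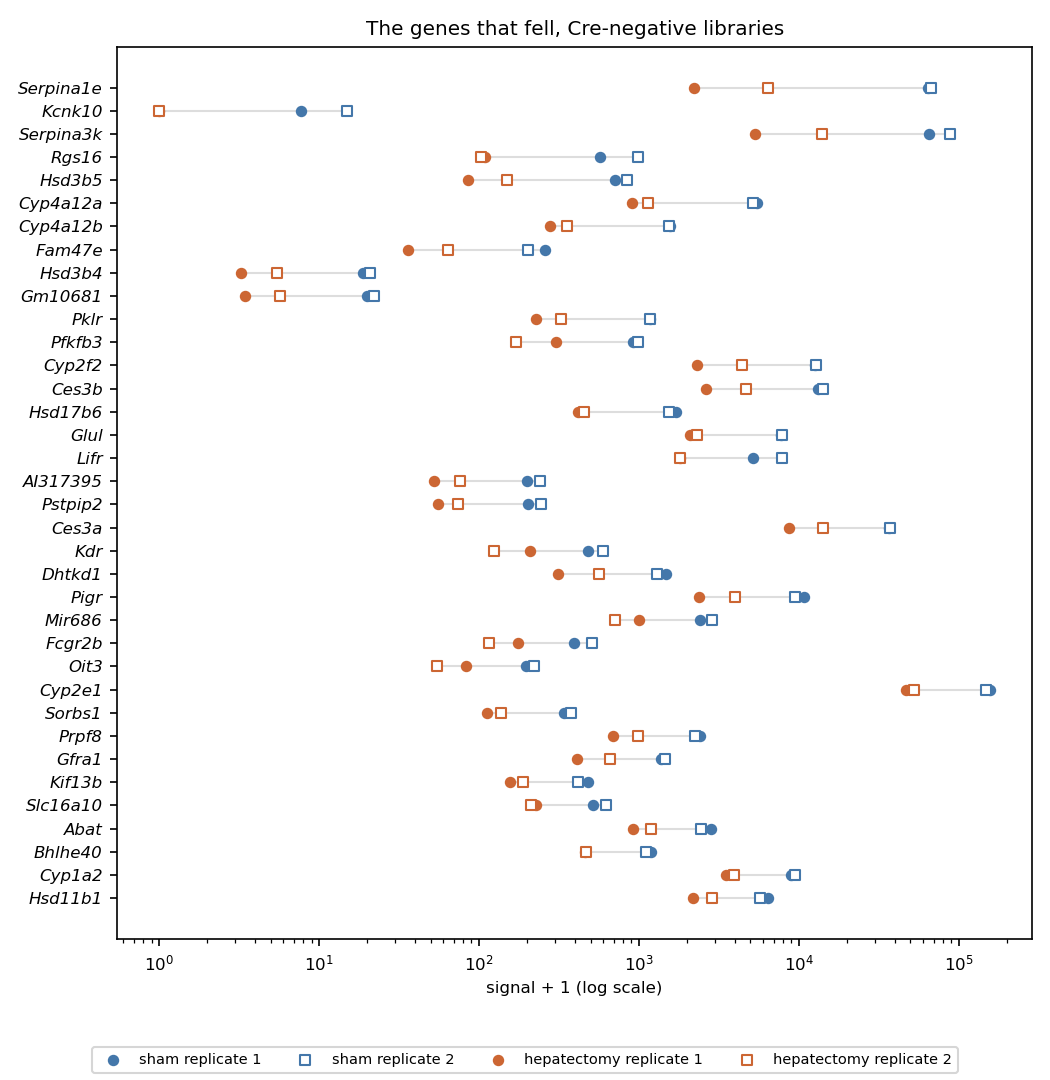
Signal + 1 on a log axis for the 36 genes that fell, in the 2 sham (blue) and 2 hepatectomy (orange) libraries, circles for replicate 1 and squares for replicate 2, ordered by log2 fold change. Each gene's hepatectomy points lie to the left of both sham points, and Serpina1e and Serpina3k show the largest distances among the abundant genes.

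Male-biased liver genes gave the lowest median of any list with 10 or more tested members, at -1.82 over 18 genes. Of these, 4 fell and 0 rose, and the falls were 22.2% of the list, against 0.220% of all genes tested. Both hepatectomy libraries lay below both sham libraries for 15 of the 18, against 23.3% of all genes tested. Hsd3b5, a male-biased steroid dehydrogenase, had 712.4 and 848.8 in sham and 84.8 and 149.8 after hepatectomy (-2.78, SE 0.35, adjusted p = 0.0198). Cyp4a12a, a male-biased fatty acid hydroxylase, had 5486.0 and 5221.3 against 901.1 and 1140.5 (-2.40, SE 0.28, adjusted p = 0.0195), and its near-identical neighbour Cyp4a12b fell by 2.30 on the log2 scale, with reads that may be shared. Serpina1e was the fourth that fell. Not called were Mup21, with 18426.2 and 13627.0 in sham and 1808.9 and 1354.9 after hepatectomy (-3.34, adjusted p = 0.103), and Cyp7b1, an oxysterol hydroxylase, with 4866.1 and 8950.0 against 1264.0 and 1864.6 (-2.10, adjusted p = 0.0807). Of the 22 members with values, 4 were left out as failed estimates, among them Mup1, Mup2 and Mup7. Reads of Mup genes may be shared, so the value of Mup21 is uncertain. Mup8 and Mup9, on no list, were at 0 in both sham libraries. After hepatectomy they were listed at 66505.2 and 67765.4 and at 84174.9 and 143026.6.

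Female-biased liver genes had a median of 1.38 over 23 genes, 19 of them positive, and 0 passed, with 12 higher and 2 lower at an unadjusted p under 0.05. At that threshold 2513 of all 16338 genes tested were higher and 1014 lower. Cyp3a16 had 6.27 and 4.57 in sham and 34.8 and 29.4 after hepatectomy (2.37, adjusted p = 0.0842). Cux2, a female-biased repressor, had 5.56 and 3.99 against 30.6 and 19.7 (2.16, adjusted p = 0.158). The most abundant tested member, Cyp2a4, was lower, with 2245.3 and 1180.9 in sham and 1136.3 and 942.5 after hepatectomy (-0.65, adjusted p = 0.555). Fold changes were negative in 4 members. The list's summed signal was 4687.1 and 3602.2 in sham and 3171.6 and 3453.0 after hepatectomy. In Cre-positive livers the list's median was -0.13, and 0 members passed the test of the difference of responses. The Y-linked Ddx3y was present in all 4 libraries, at 606.4 and 644.5 in sham and 530.5 and 410.5 after hepatectomy. In the Cre-positive libraries that share the fit it had 646.2 and 633.9 in sham and 450.5 and 8.08 after hepatectomy, so Cre-positive hepatectomy replicate 2 stands apart. The part of that library in the sex-biased lists was not tested beyond the fits without it. Growth hormone, through STAT5, sets much of this sex bias. Of 16 growth hormone and STAT5 targets 2 fell, Serpina3k and Serpina1e (median -0.83), which is 12.5%, against 0.220% of all genes tested. The receptor Ghr had 5858.0 and 5891.6 in sham and 2559.3 and 2671.7 after hepatectomy (-1.17, adjusted p = 0.167). Without both Cre-positive hepatectomy libraries, 10 male-biased liver genes fell and 5 female-biased liver genes rose. In that fit 3.39% of all genes fell and 7.59% rose.

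Zonal genes fell at both ends of the lobule. Of 27 pericentral hepatocyte genes 3 fell and 1 rose (the transporter Slc1a4), and of 24 periportal hepatocyte genes 3 fell. These falls were 11.1% and 12.5% of the lists, against 0.220% of all genes tested. Glul, glutamine synthetase of the layer around the central vein, had 7712.3 and 7863.7 in sham and 2098.5 and 2306.3 after hepatectomy (-1.82, SE 0.22, adjusted p = 0.0195). Cyp2e1, the ethanol-oxidizing P450, had 158296.0 and 148220.2 against 47124.6 and 52717.2 (-1.62, SE 0.30, adjusted p = 0.0494), and Cyp1a2 had 8964.6 and 9436.6 against 3528.5 and 3957.8 (-1.30, SE 0.24, adjusted p = 0.0494). The replicates of these 3 pericentral genes lay close together in either group. Periportal Cyp2f2 had 12704.9 and 12754.5 in sham and 2306.6 and 4456.1 after hepatectomy (-1.99, SE 0.34, adjusted p = 0.0442). Pigr, the receptor that carries IgA into bile, had 10776.9 and 9540.9 against 2373.7 and 4029.7 (-1.71, SE 0.32, adjusted p = 0.0496). Hsd17b6, an androgen-inactivating dehydrogenase, was the third periportal gene, with 1719.5 and 1555.3 against 416.8 and 452.9 (-1.91, SE 0.30, adjusted p = 0.0345). The 2 list medians were -0.69 and -0.70. In bulk liver, fewer cells of a type and less RNA per cell cannot be told apart.

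Energy and nitrogen metabolism gave scattered falls, where 0.220% of all genes tested fell. Of 32 genes of glycolysis and gluconeogenesis 2 fell: Pklr, liver pyruvate kinase, with 1184.0 and 1176.8 in sham and 226.0 and 325.2 after hepatectomy (-2.12, SE 0.26, adjusted p = 0.0198), and Pfkfb3, which makes the activator of phosphofructokinase, with 922.5 and 990.5 against 304.9 and 170.5 (-2.06, SE 0.38, adjusted p = 0.0494). The glucose transporter Slc2a2 had 2098.1 and 2178.3 in sham and 347.6 and 578.6 after hepatectomy (-2.25, adjusted p = 0.0563). Of 42 genes of urea cycle and amino acid catabolism 1 fell, Glul (median -0.53). In both hepatectomy libraries 27 of them lay below sham, against 23.3% of all genes tested. Cps1, the first urea cycle enzyme, had 77946.5 and 80699.0 in sham and 18309.6 and 31980.5 after hepatectomy (-1.71, adjusted p = 0.146). Of 41 complement and coagulation factors 0 passed at a median of -0.79, with 15 lower and 1 higher at an unadjusted p under 0.05 and 31 below sham in both libraries. At that threshold 1014 of all 16338 genes tested were lower and 2513 higher. C3, the central complement protein, had 195811.4 and 191904.3 in sham and 76916.9 and 139950.1 after hepatectomy (-0.90, adjusted p = 0.217). Of 32 genes of bile acid synthesis and transport 0 passed (median -0.70; 10 lower and 1 higher at an unadjusted p under 0.05). In these 3 lists the fit without both Cre-positive hepatectomy libraries called 7, 9 and 8 falls, where 3.39% of all genes fell.

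**Figure D5:**
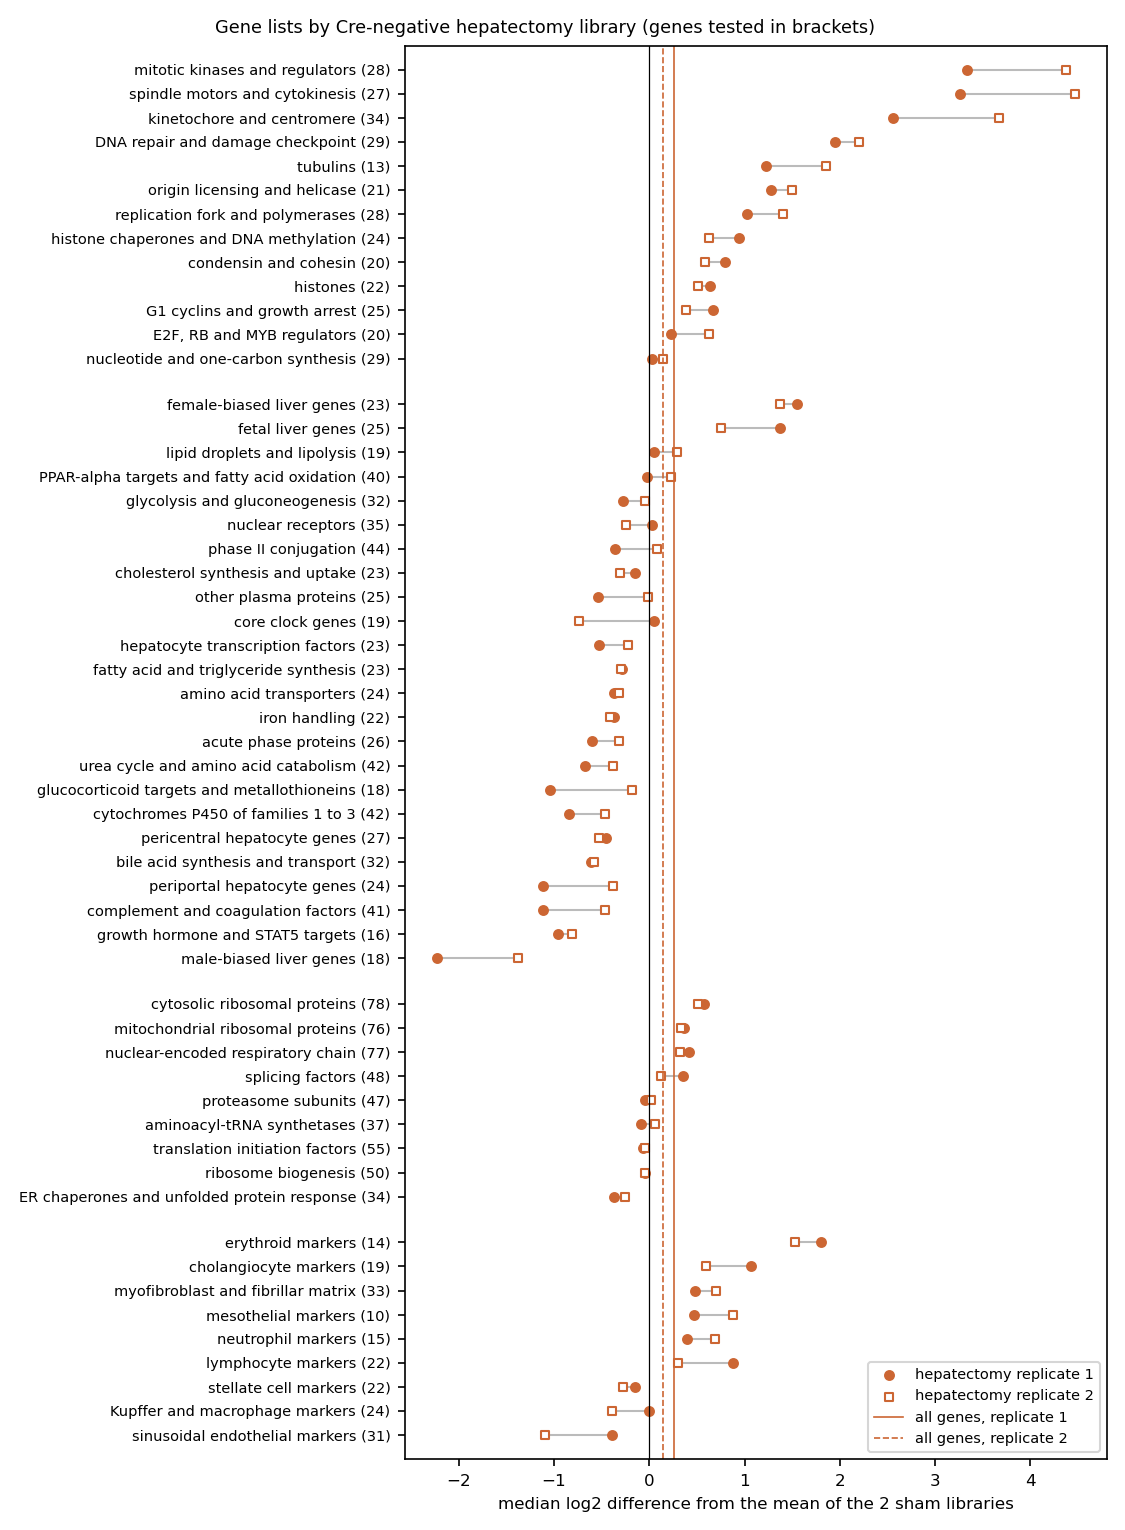
Points are the medians, over the tested members of 55 gene lists with 10 or more, of the log2 difference from the mean of the 2 sham libraries, for hepatectomy replicate 1 (circles) and replicate 2 (squares), in blocks of cell cycle, hepatocyte function, biosynthesis and cell type markers. Orange lines mark the medians of all genes (0.26 and 0.14). Mitosis lists lie furthest to the right in both libraries and male-biased liver genes furthest to the left (-2.23 and -1.38).

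Some PPAR-alpha targets rose. Of 40 PPAR-alpha targets and fatty acid oxidation genes 5 rose and 1 fell, the male-biased Cyp4a12a. These are 12.5% and 2.5% of the list, against 1.52% and 0.220% of all genes tested. The list's median was 0.10, turning to -0.08 under median-of-ratios scaling. Cyp4a14, a fatty acid omega-hydroxylase, had 44.2 and 11.1 in sham and 730.6 and 1477.8 after hepatectomy (5.48, SE 0.66, adjusted p = 0.0197). Its close relatives Cyp4a10 and Cyp4a31, with which reads may be shared, rose by 3.99 and 3.41 on the log2 scale. Acot2, a mitochondrial acyl-CoA thioesterase, had 13.1 and 8.97 against 129.9 and 61.2 (2.93, SE 0.49, adjusted p = 0.04). Angptl4, the inhibitor of lipoprotein lipase, had 581.8 and 565.0 against 1290.3 and 1476.8 (1.27, SE 0.22, adjusted p = 0.0433). Pdk4, which shuts pyruvate dehydrogenase, did not pass, with 73.8 and 46.8 in sham and 606.5 and 566.4 after hepatectomy (3.29, adjusted p = 0.0501).

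In Cre-positive livers Cyp4a14 had 100 and 56.0 in sham and 71.6 and 111.7 after hepatectomy, a log2 fold change of 0.25, and its difference of responses of 5.22 did not pass (adjusted p = 0.273). The difference for Pdk4 was 5.53 (adjusted p = 0.196) and that for Cyp4a10 was 4.75 (adjusted p = 0.379). Ppara itself, the receptor, had 662.5 and 715.1 in Cre-negative sham and 201.8 and 321.9 after hepatectomy (-1.43, adjusted p = 0.129). Plin2, the coat protein of lipid droplets, had 1738.8 and 1912.8 against 3272.0 and 4123.9 (1.01, adjusted p = 0.0986). In phase II conjugation 2 of 44 genes rose, or 4.55%, against 1.52% of all genes tested. Gsta1, a glutathione transferase, had 38.4 and 9.09 in sham and 251.3 and 440.5 after hepatectomy (4.07, SE 0.62, adjusted p = 0.0345), and its near-copy Gm3776, on no list, rose by 4.91 on the log2 scale. Gstp2 had 7644.4 and 8544.4 against 21831.8 and 25939.9 (1.56, SE 0.29, adjusted p = 0.0494), with reads that may belong to Gstp1.

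Other single members rose. Tff3, a trefoil peptide on the list of fetal liver genes (1 of 25 rose, 23 positive, median 0.99), had 10 and 9.20 in sham and 129.4 and 138.0 after hepatectomy (3.66, SE 0.40, adjusted p = 0.0165). Afp, alpha-fetoprotein, had 14.8 and 21.0 against 120.9 and 79.3 (2.41, adjusted p = 0.0986). Apoc2, the cofactor of lipoprotein lipase, had 2693.3 and 2997.5 in sham and 9894.3 and 7973.2 after hepatectomy (1.64, SE 0.23, adjusted p = 0.0279). Slc1a4, a transporter of neutral amino acids, had 7.69 and 8.47 against 45.4 and 50.2 (2.42, SE 0.40, adjusted p = 0.04). Of 78 cytosolic ribosomal proteins 2 rose, Rpl41 and Rplp1, at a list median of 0.52. This is 2.56% of the list, against 1.52% of all genes tested. In both hepatectomy libraries 64 of them lay above sham, against 39.8% of all genes tested. Rpl41 had 3865.9 and 4247.7 in sham and 13374.0 and 11456.2 after hepatectomy (1.61, SE 0.22, adjusted p = 0.0262). Without both Cre-positive hepatectomy libraries 21 of the cytosolic ribosomal proteins rose, in a fit where 7.59% of all genes did. Of 50 genes of ribosome biogenesis 0 passed (median -0.13; 3 higher at an unadjusted p under 0.05, as were 2513 of all 16338 genes tested).

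Sinusoidal endothelial markers were the only cell type list with more than 1 call. Of 31 tested, 3 fell and 0 rose, with a median of -0.81. The falls were 9.68% of the list, against 0.220% of all genes tested. Kdr, the VEGF receptor 2, had 483.4 and 601.0 in sham and 209.4 and 122.9 after hepatectomy (-1.74, SE 0.32, adjusted p = 0.0494). Fcgr2b, the Fc receptor of sinusoids, had 394.2 and 509.1 against 174.9 and 114.8 (-1.65, SE 0.30, adjusted p = 0.0446), and Oit3 had 197.1 and 219.9 against 82.3 and 54.0 (-1.63, SE 0.30, adjusted p = 0.0494). Replicate 2 was the lower hepatectomy library for all 31 markers, and their summed signal was 8219.6 and 10058.8 in sham and 7138.1 and 3862.3 after hepatectomy. Stab2, the scavenger receptor of these cells, had 1048.6 and 1422.3 against 1331.1 and 588.1, so its groups overlapped. No marker of this list passed under quantile normalization, and 8 fell with the GC trend removed.

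The 22 stellate cell markers tested had a median of -0.13. Among them Lrat, which makes retinyl esters, had 24.6 and 14.9 in sham and 6.88 and 8.31 after hepatectomy (-1.24, adjusted p = 0.201). Of 33 genes of myofibroblast and fibrillar matrix 0 passed (median 0.70; 10 higher and 2 lower at an unadjusted p under 0.05). By this measure, also used below, 2513 of all 16338 genes tested were higher and 1014 lower. Col1a1, collagen I, had the largest rise of the list, with 68.8 and 61.6 in sham and 316.8 and 357.7 after hepatectomy (2.35, SE 0.52, adjusted p = 0.076). The abundant Fn1, fibronectin, went the other way, with 19273.7 and 22866.7 against 11106.9 and 13111.8 (-0.80, SE 0.26, adjusted p = 0.153). Summed signal of the list was 23862.7 and 27889.0 in sham and 17295.8 and 19496.7 after hepatectomy. Most of each sum was Fn1, so its fall does not stand for the other members. Fold changes were positive in 26 members and negative in 7. Of 14 erythroid markers 0 passed (median 1.75; 7 higher and 1 lower at an unadjusted p under 0.05), and their summed signal was 8517.3 and 8628.5 in sham and 20801.0 and 31889.4 after hepatectomy. Hba-a1, alpha globin, had 1971.6 and 2235.2 against 6585.8 and 11360.0 (2.04, adjusted p = 0.191), with reads that may be shared with Hba-a2. Lymphocyte markers summed to 127.3 and 142.8 in sham and to 222.4 and 165.3 after hepatectomy, and 0 of 22 passed (0 at an unadjusted p under 0.05). Their part in the genes that rose or fell was not tested.

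The responses of the genotypes were compared gene by gene. Among the 248 risen genes the Cre-positive fold change was positive in 208, and among the 36 fallen genes it was negative in 31. None of the 284 passed the test of the difference of responses, which called 1 gene of 16338 (0.00612%). Their median log2 fold changes in Cre-positive livers were 2.17 and -0.99. Since the genes were chosen by their Cre-negative values, these smaller medians are no comparison of size. The count moved with the Cre-positive hepatectomy libraries: the test called 771 genes without Cre-positive hepatectomy replicate 1 and 34 without Cre-positive hepatectomy replicate 2.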

How the data were processed

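RNA of whole mouse liver was measured by RNA-seq in 8 libraries, grouped by their titles, and the 4 Cre-negative ones were compared. The authors deposited a normalized signal per gene and isoform (34465 genes, 96792 isoforms). TopHat, Cufflinks and the builds mm9 and NCBIM37 are named per the submitters' processing notes, while the sources used here give neither their versions nor the normalization. The deposited signal holds no whole reads, so depth is unknown and no counting error or floor is given; totals of the 8 libraries were 8617664 to 11583777. Columns that belong to no sample numbered 0. The tests had been laid out for FPKM, and the same test was kept for signal.

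From these values, limma 3.58.1 (R 4.3.3) was fitted to log2(signal + 1) with a mean per group over all 8 libraries, an intensity trend, 4 residual and 3.57 prior degrees of freedom, two-sided tests, Benjamini-Hochberg adjustment over all genes and a threshold of 0.05. A mean of 1 or more over the 8 libraries was required, which left 16338 genes; 18022 were under it, and 105 listed at 0 in at least 1 library and at 100 or more in another were left out as failed estimates. The contrasts were hepatectomy against sham in Cre-negative livers and its difference from the same contrast in Cre-positive livers. Errors are standard errors, with n = 2 libraries per group. The fit was tested on simulated data.

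The members and 69 gene lists were chosen with earlier results of these data known. Lists are given by counts and medians, with no test of their own. The genes named are Pdgfrb and Gfap, the 12 largest rises and falls among calls whose groups do not overlap, up to 4 called members per list with the smallest adjusted p or otherwise the 2 most abundant, and failed estimates on a list. Other list members given as values, and genes on no list, were chosen after their values were seen. Alternatives were the pseudocount, the filter, scaling, GC content (known for 96.8% of genes tested), failed estimates, the libraries fitted and each library left out. Reads of near-identical paralogs and of overlapping or antisense genes may be shared, since the labels do not say whether libraries kept strand. Some items are not reported here.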

Additional observations from a re-analysis of the deposited data

Results flagged for a closer look

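A single gene passed the test of the difference of responses between the genotypes. SCARNA4, a small Cajal body RNA, had signals of 18.6 and 19 in Cre-negative sham and 47.4 and 52.2 after hepatectomy (adjusted p = 0.116 by limma for that response), and was listed at 0 in both Cre-positive hepatectomy libraries. The difference of responses was 6.86 on the log2 scale (limma adjusted p = 0.0293, n = 2 libraries per group). This difference and its p-value rest on the zeros of the Cre-positive hepatectomy libraries. An exact 0 in these data can be a failed estimate, and whether these zeros are was not tested.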

How the results depend on the processing

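Of 151 named genes 25 changed sign in at least 1 setting, 0 of them among those that passed. Counts of calls moved more, relative to 248 genes that rose, 36 that fell and 1 that differed between genotypes. Without a filter on low signal 92 rose, and under median-of-ratios scaling 140. Quantile normalization gave 91 that rose, 17 that fell and 2 that differed. With failed estimates kept, 17 fell and 2 differed, and with a pseudocount of 5, 0 differed. Removing the GC trend gave 238 that fell and 0 that differed. In a fit of only the 4 Cre-negative libraries 81 rose and 9 fell. Leaving out 1 library at a time gave 0 to 1253 that rose, 0 to 554 that fell and 0 to 771 that differed. The 0 calls came without Cre-negative sham replicate 1 or 2, Cre-positive sham replicate 1 or 2 or Cre-negative hepatectomy replicate 1. These alternatives were chosen after seeing the data: without both Cre-positive hepatectomy libraries 1240 rose and 554 fell, and with identical entries counted as 1, 201 rose and 25 fell. The cause of these differences was not tested. Median-of-ratios scaling moved the median of all genes from 0.206 to 0.033, and quantile normalization to -0.039. The sign of the list median turned under a scaling or with the GC trend removed for HGF and EGF receptor signalling, PDGF ligands, PPAR-alpha targets, glycolysis, nucleotide synthesis, lipid droplets, immediate early genes, proteasome subunits, interferon-stimulated genes, lymphocyte markers and other plasma proteins. No paired analysis was possible because the titles number the samples 1 to 8 and the groups share no replicate number.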

Other observations

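Some calls on no list are given as values, named after those values were seen and with no count of the groups they belong to. Myom1, a protein of the sarcomere M-band, had 34.0 and 36.0 in sham and 500.4 and 153.2 after hepatectomy (log2 fold change 2.95, SE 0.55, adjusted p = 0.0494 by limma). Myh6, a cardiac myosin heavy chain, was listed at 0 in both sham libraries and at 15.5 and 5.57 after hepatectomy. Trdn, triadin of the muscle calcium-release complex, had 0.759 and 0.809 in sham and 8.35 and 8.03 after hepatectomy. Myh6 and Trdn met the filter on low signal only through the hepatectomy libraries, so their direction was largely set by the filter. In Cre-positive livers Myom1 had 39.7 and 31.3 in sham and 10.3 and 17.2 after hepatectomy, and its difference of responses of 4.29 did not pass (adjusted p = 0.276).

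Chka, choline kinase, had 158.5 and 111.8 in sham and 1923.7 and 699.4 after hepatectomy (3.11, SE 0.52, adjusted p = 0.04), with hepatectomy replicate 1 the higher. Isyna1, which makes inositol phosphate from glucose 6-phosphate, had 107.3 and 116.8 against 639.5 and 646.3 (2.51, SE 0.33, adjusted p = 0.0257). Dbi, the acyl-CoA binding protein, had 6703.8 and 7187.2 against 22136.8 and 18298.6, a log2 fold change of 1.54. Among the genes that fell on no list, Ces3a, a carboxylesterase of hepatocytes, had 36934.8 and 37250.8 in sham and 8696.8 and 14154.6 after hepatectomy (-1.74, SE 0.32, adjusted p = 0.0473), and Abat, GABA transaminase, had 2848.1 and 2447.2 against 915.8 and 1192.4 (-1.34, SE 0.23, adjusted p = 0.0442).

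Some abundant entries held repeated values. The Mup pseudogene Mup-ps17 was listed at 261402.5 in both Cre-negative sham libraries, both Cre-positive sham libraries and Cre-positive hepatectomy replicate 1, and at 6222.0 and 18245.7 in the Cre-negative hepatectomy libraries (-4.62, adjusted p = 0.104). What set the repeated value was not tested.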
